A study of Solanum tuberosum with 100 samples.

Results

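PHO1A (PGSC0003DMG400007782) and AGPB1 (PGSC0003DMG400031084) are starch genes of the potato, Solanum tuberosum, and were 2 of the 25163 genes counted in bruised tubers. They were chosen by identifier from the study's list of 40 candidate genes for tuber bruising, of which 35 were counted, and no expression value entered the choice. PHO1A encodes an α-glucan phosphorylase of the L type and lies on the pseudochromosome that collects sequence not anchored to a chromosome (number 0 of the PGSC-DM assembly, per the study's list). AGPB1 encodes the small subunit of glucose-1-phosphate adenylyltransferase of the chloroplast and amyloplast and lies on chromosome 7. The remaining starch gene of that list, AGPB (PGSC0003DMG400046891) on chromosome 12, also encodes a glucose-1-phosphate adenylyltransferase.

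When a tuber is hit, damaged cells let phenolic compounds meet polyphenol oxidases, and a dark pigment forms there, which is called a bruise. The study asked how gene expression at the bruised site differs between tubers of low and high bruising. All 100 samples were tubers of progeny of 1 common parent, Crop52, which had been crossed with 11 other parents (V390, Admiral, Dolce Vita, Driver, Crop18, Moonlight, Red Rascal, Summit Russet, Crop9, Crop37 and Crop58). Harvested tubers were stored at 4 °C for 2 weeks before they were bruised. Every tuber was struck with a falling lead weight and sampled at the site of impact 2 h later, so that no group was left unbruised. Each library pooled tissue from 3 tubers, which made up 1 biological replicate, and each progeny genotype was sequenced once. Bruising was scored from 0 to 5 after 24 h. Libraries whose own replicate had a mean score of 1 or less formed the low-bruising group (41 samples), those with 2 or more formed the high-bruising group (33 samples), and 26 samples with scores between these limits belonged to neither. A second biological replicate of each genotype was scored but not sequenced, and its score was missing for 1 genotype.

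Starch is made in the amyloplasts of the tuber from glucose 1-phosphate. Glucose-1-phosphate adenylyltransferase, also called ADP-glucose pyrophosphorylase, joins it to ATP to give ADP-glucose, the substrate of the starch synthases, and works as a complex of small and large subunits. The L-type phosphorylase is a plastidial enzyme that adds glucose from glucose 1-phosphate to an α-glucan chain or releases it again, so that both enzymes act on the same sugar phosphate.

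Total counts ran from 6832655 to 41650152 per sample, and the group medians were 19370171 (low bruising), 20753192 (neither group) and 18637596 (high bruising). Levels are given as CPM, the reads of a gene scaled to a common library size after TMM, a scaling factor per library computed by edgeR. At these depths PHO1A had at least 4667 and AGPB1 at least 2887 reads in every library, so counting error was small beside the spread between samples. Markers of tuber storage tissue were present. All 5 patatin genes and 8 protease inhibitor genes of the list were counted, and 4 and 8 of these had reads in every library. Their summed levels varied widely, from 559 to 15381 CPM for patatin and from 1009 to 18745 CPM for the protease inhibitors.

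Both genes were expressed in all 100 libraries, and their levels varied several-fold between genotypes. PHO1A had a mean of 912 ± 298 CPM (SD, n = 100), with a lowest value of 363, a median of 879 and a highest of 1735 CPM. The highest library was thus 4.78 times the lowest. AGPB1 had a mean of 658 ± 193 CPM (SD, n = 100), and its values ran from 311 over a median of 655 to 1238 CPM, a range of 3.98-fold. Their SDs on the log2 scale, 0.48 and 0.43, stood above the median of 0.32 over the genes nearest in level to each, and 78.6% and 73.6% of those genes varied less. AGPB had almost no reads. It had 0 reads in 64 of the 100 libraries and at most 27 reads in any, with a mean of 0.113 CPM, and 18 libraries held more than 3 reads. In the 5 progeny of the Crop58 cross, the one with the highest mean, AGPB had 27, 0, 9, 1 and 11 reads.

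The highest PHO1A level, 1735 CPM, came from a low-bruising genotype of the Moonlight cross. The lowest, 363 CPM, came from a high-bruising genotype of the V390 cross, whose AGPB1 level of 607 CPM was near the middle of the range. For AGPB1 the highest library was a high-bruising genotype of the Crop9 cross with 1238 CPM, and the lowest was a low-bruising genotype of the Admiral cross with 311 CPM. Of the 10 libraries highest in PHO1A, 7 belonged to the high-bruising, 2 to the low-bruising and 1 to neither group, and of the 10 lowest, 2 were high and 6 low bruising. The 10 libraries highest in AGPB1 held 6 of high and 1 of low bruising, and the 10 lowest held 1 of high and 6 of low bruising. All 100 libraries held 33 of high and 41 of low bruising. Of the 10 lowest, 4 in PHO1A and 3 in AGPB1 were of the Admiral cross. No cross gave more than 3 of the 10 highest in either gene.

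Neither gene passed the test between the bruising groups, although both had a higher mean in the high-bruising group. PHO1A ran from 454 over a median of 843 to 1735 CPM in low-bruising samples and from 363 over 964 to 1603 CPM in high-bruising samples. The means were 862 ± 279 CPM (SD, n = 41) and 992 ± 338 CPM (SD, n = 33), and the groups overlapped over nearly their whole range. The difference of high over low was 0.20 on the log2 scale (standard error 0.11, 95% interval -0.02 to 0.42), with an adjusted p = 0.452 in the quasi-likelihood test of edgeR, adjusted by Benjamini-Hochberg for the 25163 genes. AGPB1 ran from 311 over a median of 632 to 965 CPM in low-bruising samples and from 403 over 692 to 1238 CPM in high-bruising samples. Its means were 624 ± 166 CPM (SD, n = 41) and 727 ± 200 CPM (SD, n = 33). Here 4 of the 33 high-bruising samples lay above every low-bruising sample, and 4 low-bruising samples lay below every high-bruising one. The log2 difference was 0.22 (standard error 0.09, 95% interval 0.04 to 0.40), with p = 0.0186 before and 0.296 after adjustment in edgeR's test. Taking every pair of 1 high- and 1 low-bruising sample, the high-bruising sample had more PHO1A in 62.2% and more AGPB1 in 63.2% of pairs. In bulk tissue, fewer cells of a type and less RNA per cell cannot be told apart.

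Over all genes, 0.183% (46 of 25163) were called in this comparison, and 3110 had an unadjusted p below 0.05. None of the 35 candidate genes was called by edgeR, by DESeq2 or by limma-voom, and edgeR gave 2 of them an unadjusted p below 0.05. The count of 46 genes rested on the tool and on sparse genes, since limma-voom called 0, DESeq2 called 57, and edgeR called 3 after its own filter on low counts. The direction of PHO1A and AGPB1 did not depend on these choices.

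**Figure D1:**
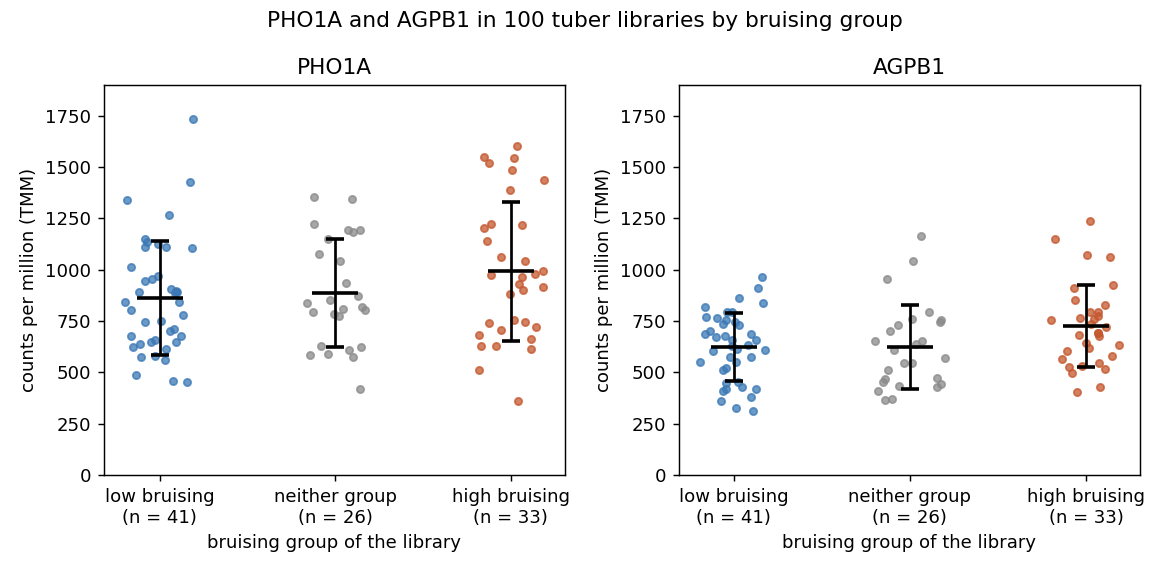
Each point is 1 library, with CPM on the vertical axis and the bruising group on the horizontal axis. Bars give the mean ± SD. The group means of PHO1A (862, 888 and 992 CPM) and AGPB1 (624, 625 and 727 CPM) are highest in the high-bruising group, and the points of the groups overlap.

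Samples of neither group were used to place the middle of the score range. Their PHO1A mean was 888 ± 262 CPM (SD, n = 26) and their AGPB1 mean 625 ± 206 CPM (SD, n = 26). Against low bruising, the log2 difference was 0.04 (standard error 0.12) for PHO1A and 0.002 (standard error 0.10) for AGPB1, where 0.0636% of all genes were called. High bruising over neither group gave 0.16 (standard error 0.12) for PHO1A and 0.22 (standard error 0.11) for AGPB1, where 0.0715% of genes were called. The adjusted p of the latter were 0.834 and 0.694 in edgeR's test. The mean of AGPB1 was thus nearly the same at low and middle scores, and the higher mean was seen at high scores, without passing the test.

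Bruising groups were spread unevenly over the crosses. The Crop18 cross had 7 high- and 2 low-bruising samples, while the Red Rascal and Crop58 crosses had 7 and 4 low-bruising samples and 0 of high bruising. When the fit also held a term for cross, the log2 difference of PHO1A fell to 0.09 (standard error 0.12, adjusted p = 1.0 in edgeR's test), whereas that of AGPB1 was 0.20 (standard error 0.09, p = 0.0361 before and 0.901 after adjustment). In that fit 0% of genes were called, with 1343 at an unadjusted p below 0.05.

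Within the 9 crosses that had both groups (63 samples), the mean log2 level was higher in high-bruising samples in 6 crosses for PHO1A and in 7 for AGPB1. The Summit Russet cross had the largest mean difference of the 9 for both genes. There the high-bruising samples had 964 and 1219 CPM of PHO1A and the low-bruising samples 648 and 675 CPM. For AGPB1 the same libraries had 546 and 619 against 360 and 429 CPM. With 2 samples in each group of that cross, the mean differences were 0.71 for PHO1A and 0.56 for AGPB1 on the log2 scale. The 7 high-bruising samples of the Crop18 cross had a mean of 1049 CPM of PHO1A against 794 CPM in its 2 low-bruising samples, and 658 against 494 CPM of AGPB1.

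Other crosses went the opposite way. In the Moonlight cross PHO1A had 682, 899, 1064 and 1603 CPM in high-bruising and 1148 and 1735 CPM in low-bruising samples, a mean log2 difference of -0.48. AGPB1 hardly differed there, at -0.04. In the Dolce Vita cross AGPB1 was at 403 and 497 CPM in high-bruising samples and between 450 and 965 CPM in the 6 low-bruising ones, a difference of -0.45. The Admiral cross had PHO1A lower (-0.28) and AGPB1 higher (0.18) in high-bruising samples. The interaction of group and cross, which tests whether these differences vary among crosses, gave p = 0.552 for PHO1A and 0.281 for AGPB1 in edgeR's test (adjusted p = 0.969 and 0.930), and 0.0159% of all genes were called in it.

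**Figure D2:**
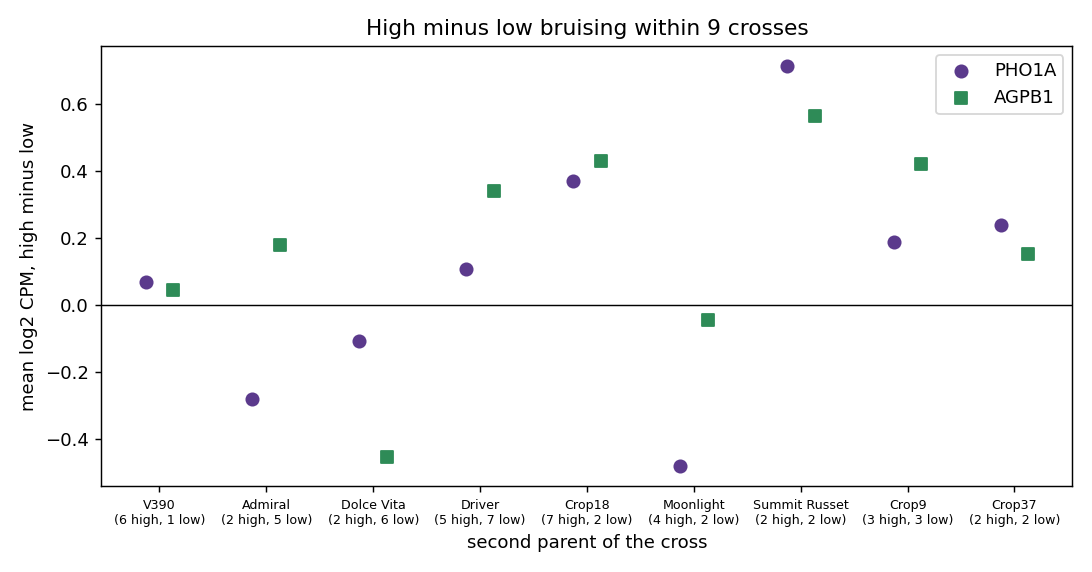
For each of the 9 crosses with both groups, the difference of high minus low bruising in mean log2 CPM is shown for PHO1A (circles) and AGPB1 (squares), with the number of samples under each cross. Values lie above 0 in 6 crosses for PHO1A and in 7 for AGPB1, and reach 0.71 and 0.56 in the Summit Russet cross.

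The crosses themselves differed in both genes. Progeny of Dolce Vita and Admiral were lowest in PHO1A, and progeny of Admiral and Summit Russet were lowest in AGPB1. The test of any difference among the 11 crosses gave an adjusted p = 0.000182 for PHO1A and 1.56e-06 for AGPB1 in edgeR's test. Such differences were common, as 67.1% of all genes were called. On the log2 scale, 31.5% of the variance of PHO1A and 41.6% of that of AGPB1 lay between crosses, beside a median of 29.1% over the 17200 genes with a mean of at least 1 CPM. Between bruising groups lay 2.91% and 6.51%, beside a median of 1.76%. Of the 35 candidate genes, 28 were called among crosses.

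PHO1A formed a broad order in which the upper crosses ran into each other. The Crop37 cross had 1161 ± 235 CPM (SD, n = 6), the Moonlight cross 1183 ± 371 (SD, n = 7) and the Crop9 cross 1152 ± 298 (SD, n = 8). Then came Crop18 with 992 ± 256 (SD, n = 9), Summit Russet with 981 ± 284 (SD, n = 7) and V390 with 926 ± 281 CPM (SD, n = 11). The Crop58, Red Rascal and Driver crosses had means of 880, 879 and 855 CPM. At the low end were the Admiral cross with 684 ± 158 CPM (SD, n = 10) and the Dolce Vita cross with 673 ± 160 CPM (SD, n = 13). The highest of the 13 Dolce Vita libraries had 969 CPM, which was below the means of the first 5 crosses. Each cross was also compared with the mean of the others, where 15.4% of tests over all genes and crosses were called. Dolce Vita progeny had 0.704 times the PHO1A level of the other crosses (log2 difference -0.51, standard error 0.13, adjusted p = 0.00235 in edgeR's test) and Admiral progeny 0.716 times (-0.48, standard error 0.14, adjusted p = 0.0125). No cross passed the test on the high side. The Moonlight, Crop37 and Crop9 crosses had 1.31, 1.28 and 1.27 times the level of the others, with adjusted p between 0.102 and 0.155.

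AGPB1 was highest in the Crop9 cross with 833 ± 202 CPM (SD, n = 8), the V390 cross with 819 ± 215 (SD, n = 11) and the Crop37 cross with 787 ± 137 (SD, n = 6). The Crop58, Moonlight and Red Rascal crosses had means of 718, 722 and 692 CPM, and Driver and Crop18 had 647 and 621 CPM. The lowest were Dolce Vita with 559 ± 153 (SD, n = 13), Summit Russet with 490 ± 110 (SD, n = 7) and Admiral with 456 ± 101 CPM (SD, n = 10). Every Admiral library, up to its highest of 607 CPM, had less AGPB1 than every Crop58 library. Differences between these 2 crosses were common, as 17.8% of all genes were called in this pair. How many genes had no overlap between their libraries was not counted. In the comparison of each cross with the others, Crop9 (1.30-fold, adjusted p = 0.0312 in edgeR's test) and V390 (1.28-fold, adjusted p = 0.0115) were higher. Admiral (0.671-fold, adjusted p = 0.000258) and Summit Russet (0.726-fold, adjusted p = 0.0242) were lower.

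The Crop58 cross had the smallest spread of AGPB1, and whether spread differs between crosses or between the genes was not tested. The 5 Crop58 progeny had AGPB1 at 655, 689, 704, 747 and 793 CPM, a coefficient of variation of 7.45%, while in the other crosses it lay between 17.4% and 27.4%. The same libraries had PHO1A at 1196, 894, 889, 641 and 778 CPM, and the one with the most PHO1A had the least AGPB1.

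Pairs of crosses were then compared to see which of them differed. Of the 55 pairs, 11 (20%) differed in PHO1A and 16 (29.1%) in AGPB1, where 14.3% of tests over all genes and pairs were called. Each of the 11 PHO1A pairs had Dolce Vita, Admiral or Driver as its lower member. The largest PHO1A ratio among them was Moonlight over Dolce Vita, at 1.76-fold (log2 0.81, standard error 0.19, adjusted p = 0.00116 in edgeR's test). For AGPB1 it was Crop9 over Admiral, at 1.82-fold (log2 0.87, standard error 0.16, adjusted p = 5.08e-05). None of the 10 pairs of neighbours in either order was called by edgeR, or had an unadjusted p below 0.05. Neighbours were defined by these same levels, so small differences between them were built in. Their tests cannot show which places in the order are distinct.

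**Figure D3:**
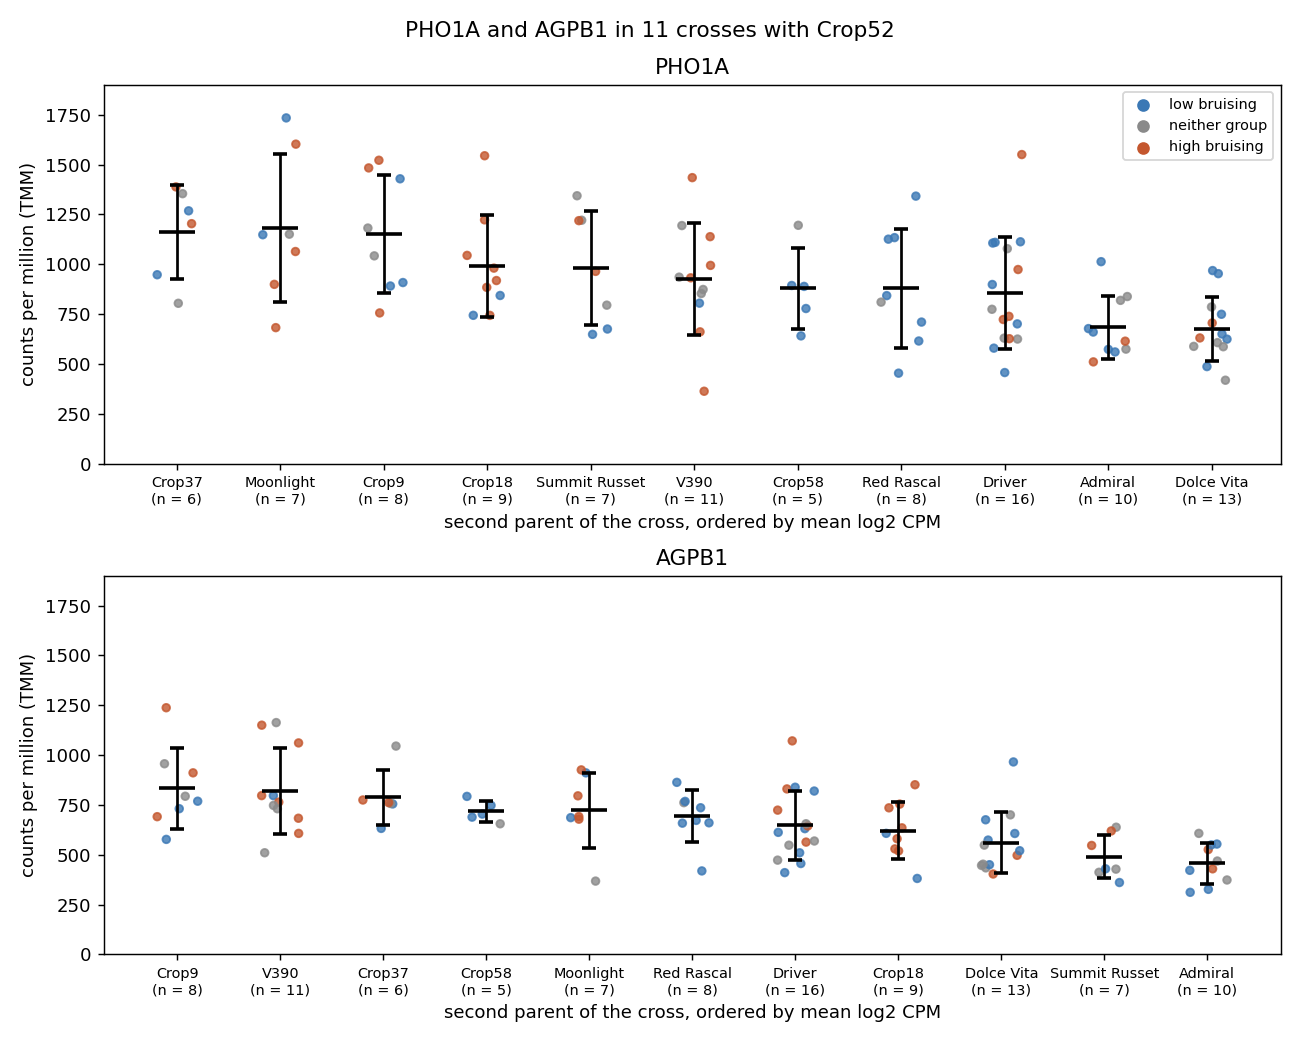
The CPM of each library are plotted by the second parent of its cross, ordered by mean log2 CPM for each gene, with points coloured by bruising group and bars for the mean ± SD. PHO1A is lowest in the Admiral and Dolce Vita crosses (684 and 673 CPM), and AGPB1 in the Summit Russet and Admiral crosses (490 and 456 CPM).

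Bruising scores were next used as numbers, with the tuber scores taken from the study's score table. Both genes had a positive slope on every score, and neither passed edgeR's test over all genes. Per score unit of the sequenced replicate, PHO1A was higher by 0.13 on the log2 scale (standard error 0.05, adjusted p = 0.131 in edgeR's test) and AGPB1 by 0.10 (standard error 0.04, adjusted p = 0.187), where 3.11% of genes were called. The score of the replicate that was not sequenced came from other tubers than those in the library. It gave 0.10 (standard error 0.05, adjusted p = 0.188) for PHO1A and 0.10 (standard error 0.04, adjusted p = 0.152) for AGPB1 over 99 samples in edgeR's test, where 3.62% of genes were called. With both scores in 1 fit, the slopes on the own score were 0.09 (standard error 0.06) and 0.06 (standard error 0.05), and those on the other score 0.07 (standard error 0.05) and 0.07 (standard error 0.04).

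The mean score of both replicates is a value of the genotype over all its tubers. Averaging lessens the spread of a score, which by itself raises a slope per unit. The sizes of slopes are therefore not compared between scores. On the mean score they were 0.16 per unit for PHO1A (standard error 0.06, p = 0.00565, adjusted p = 0.0575 in edgeR's test) and 0.14 for AGPB1 (standard error 0.05, p = 0.00625, adjusted p = 0.0611), where 8.99% of genes were called. These values lay close to the threshold of 0.05, and single crosses moved them across it. Without the Red Rascal cross the adjusted p was 0.0278 for PHO1A and 0.0420 for AGPB1, and without the Crop9 cross it was 0.0344 for PHO1A. Over all settings it ran from 0.0278 to 0.651 for PHO1A and from 0.0420 to 0.427 for AGPB1. Of the 35 candidate genes, 1 was called on this score, HQT, a gene of chlorogenic acid synthesis, with a negative slope (-0.17, standard error 0.06, adjusted p = 0.0399 in edgeR's test).

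Taken as single relations, without adjustment for the other genes, the correlations of log2 CPM with the scores were weak and positive. With the mean score, r was 0.27 (rho 0.26, two-sided permutation test, p = 0.00836) for PHO1A and 0.27 (rho 0.26, p = 0.00761) for AGPB1. With the score of the sequenced replicate, r was 0.23 (rho 0.20, permutation p = 0.0201) and 0.22 (rho 0.17, permutation p = 0.0293). The latter fell to 0.16 (permutation p = 0.114) and 0.18 (permutation p = 0.0804) without the 2 libraries farthest from the median score, so it rested in part on them. The same step left the relation to the mean score at 0.25 and 0.23 (permutation p = 0.0151 and 0.0224). With the other replicate's score, r was 0.22 (rho 0.20, permutation p = 0.0275) and 0.24 (rho 0.24, permutation p = 0.0165). It was 0.20 for each gene without the 2 libraries farthest from the median of that score (permutation p = 0.0498 and 0.0494). A library of this pair shared its score of 3.67 with others that were left in, so the choice was in part arbitrary. Centred on the crosses, r with the mean score was 0.18 (permutation p = 0.0818) for PHO1A and 0.29 (permutation p = 0.00564) for AGPB1. These 6 relations and that of PHO1A with AGPB1 were chosen with earlier results known, so their p-values are unadjusted descriptions beside edgeR's adjusted ones.

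With cross as a term, the slopes on the mean score were 0.11 (standard error 0.06, p = 0.0664) for PHO1A and 0.14 (standard error 0.05, p = 0.00579) for AGPB1 in edgeR's test, with adjusted p of 0.651 and 0.427. In each of the 3 score fits with cross, 0% of genes were called, and between 1675 and 2017 genes had an unadjusted p below 0.05. With cross, the slopes on the score of the sequenced replicate were 0.08 for each gene, and those on the other replicate's score 0.07 for PHO1A and 0.09 for AGPB1. On the mean score, the slope of PHO1A was thus smaller within crosses than over all samples, and that of AGPB1 was not. Whether the 2 genes differ in this was not tested.

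**Figure D4:**
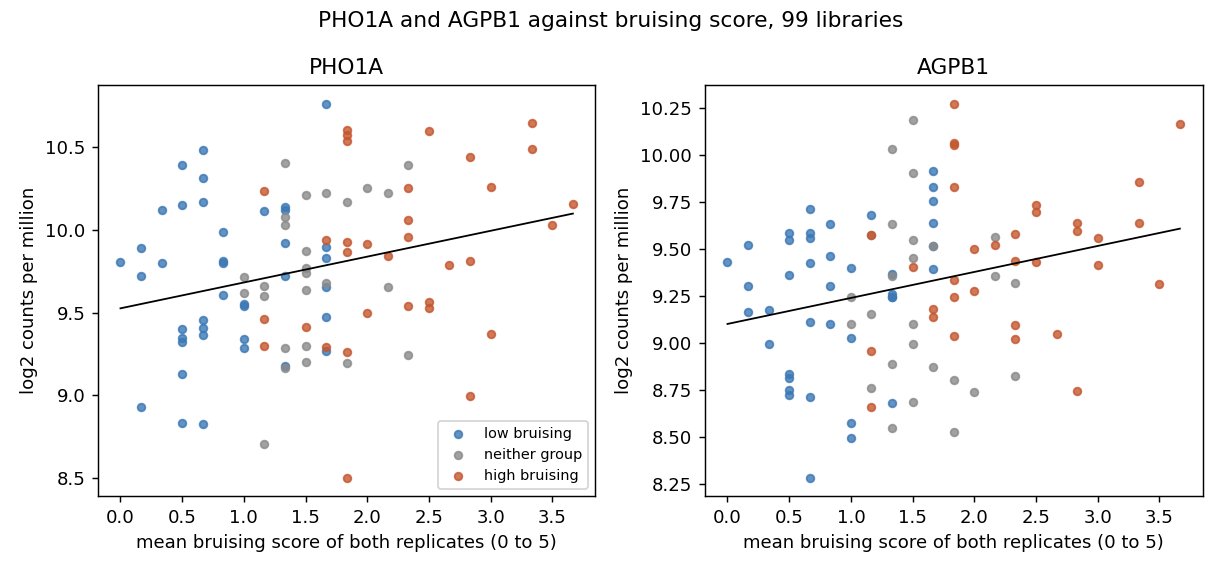
Each point is 1 of 99 libraries, with the mean bruising score of both replicates on the horizontal axis and log2 CPM on the vertical axis, coloured by the group of the sequenced replicate. The lines are least-squares fits. Both rise with the score, at slopes of 0.16 (PHO1A) and 0.14 (AGPB1) per unit in edgeR's fit, and the points scatter widely around them.

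PHO1A and AGPB1 varied together from library to library. Over the 100 libraries, the correlation of their log2 CPM was r = 0.56 and Spearman's rho = 0.55 (two-sided permutation test, p = 1e-05 for each, the smallest that 100000 resamples can give). After each value was centred on the mean of its cross, r was 0.50 and rho 0.46 (p = 1e-05 for each, permuted within crosses). Leaving out the 2 libraries farthest from the median of PHO1A gave r = 0.56. The correlation was positive in each of the 10 crosses with at least 6 samples, from 0.31 (Moonlight) to 0.83 (Crop18). It was 0.65 in high-bruising, 0.56 in low-bruising and 0.38 in the remaining samples. Of the 10 libraries highest in PHO1A, 5 were also among the 10 highest in AGPB1, and of the 10 lowest, 4 were shared.

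**Figure D5:**
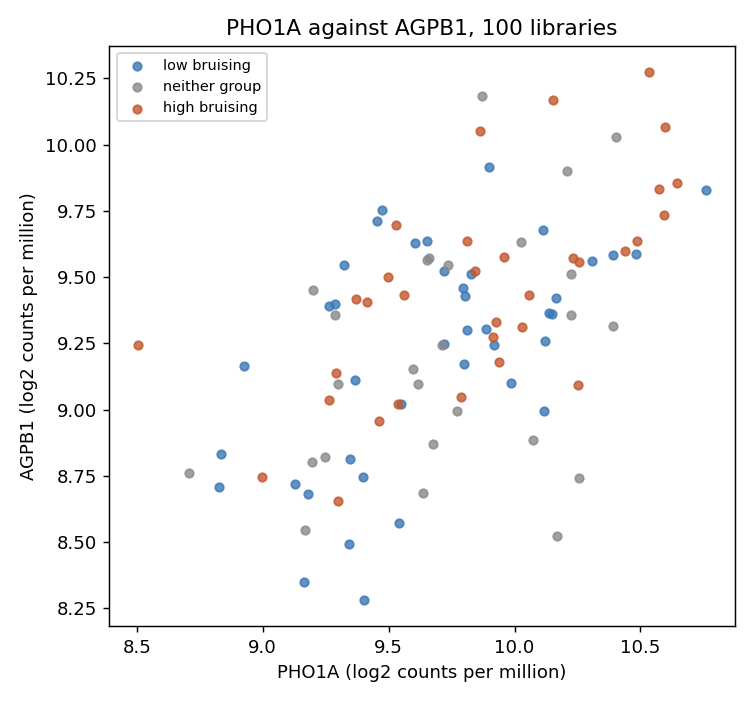
The log2 CPM of AGPB1 are plotted against those of PHO1A for 100 libraries, coloured by bruising group. The points form a broad rising cloud (r = 0.56), and the library lowest in PHO1A, at the left edge, is a high-bruising genotype of the V390 cross with 607 CPM of AGPB1.

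The ratio of PHO1A to AGPB1 counts within a library does not depend on library size, and since gene lengths were not used only its differences are read. It had a geometric mean of 1.37 and ran from 0.598 to 3.13. The group means were 1.37 (low bruising), 1.43 (neither group) and 1.33 (high bruising). High minus low was -0.04 on the log2 scale (two-sided permutation test, p = 0.677). Within crosses it was -0.12 (p = 0.21, permuted within crosses). Over all samples its sign changed when the V390 or the Admiral cross was left out (0.03 and 0.006). Of the variance of the log2 ratio, 27.3% lay between crosses, against 10.1% for cross labels without any relation to it (permutation test, p = 0.00099). Such a share was common, as the median over single genes with a mean of at least 1 CPM was 29.1%. The Summit Russet cross had the highest ratio, 1.97, being in the middle of the order for PHO1A and next to last for AGPB1. The V390 cross had the lowest, 1.11, being in the middle for PHO1A and second for AGPB1.

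Among the 17199 other genes with a mean of at least 1 CPM, each gene was number 6 in closeness to the other by r of log2 CPM over the 100 libraries, and number 15 within crosses. The median r with all genes was near 0 for both (-0.004 for PHO1A and -0.001 for AGPB1), and 95% of genes had an r below 0.26 and 0.25. PGSC0003DMG400003495 followed PHO1A most closely (r = 0.95, and 0.94 within crosses), and PGSC0003DMG400002479 was next (r = 0.91). Then came PGSC0003DMG400033858 (r = 0.79), PGSC0003DMG401000007 (r = 0.61) and PGSC0003DMG400028641 (r = 0.58). The closest to AGPB1 were PGSC0003DMG400011132 (r = 0.67), PGSC0003DMG400000735 (r = 0.61) and PGSC0003DMG400002895 (r = 0.60). PGSC0003DMG400002479, on both lists, came next for AGPB1 (r = 0.58), followed by PGSC0003DMG400012412 (r = 0.56). The sources used here give these identifiers no annotation, and whether any is a copy or a fragment of PHO1A or AGPB1, which could share its reads, was not tested. None of them was called between high and low bruising by edgeR, with log2 differences from 0.03 to 0.49 and adjusted p from 0.0995 to 0.930.

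Within the candidate list, PHO1A and AGPB1 were each other's closest gene of the 34 others by r over all libraries. Within crosses, the protease inhibitor gene KTPI was closer to PHO1A (r = 0.51) than AGPB1 was (0.50), while PHO1A was the closest to AGPB1. Next to PHO1A were the patatin genes PAT2-K4 (r = 0.49) and PAT0409 (r = 0.47), which encode storage proteins, and next to AGPB1 the protease inhibitor genes KTEI (r = 0.45) and CDI (r = 0.44). The lowest value for PHO1A was that with 4CL, a gene of phenylpropanoid synthesis (r = -0.33, and -0.28 within crosses).

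Measures of the whole library moved with both genes. The share of counts taken by the 50 most abundant genes, which ran from 9.30% to 15.6%, had r = 0.60 with PHO1A and 0.36 with AGPB1. The summed patatin level had r = 0.43 and 0.33, the summed protease inhibitor level 0.44 and 0.47, and the log2 total count 0.11 and 0.25. Except for the total count, their part in the differences above was not tested. Total count as a term left the log2 differences of high over low at 0.22 and 0.24. Leaving the 50 most abundant genes out of the table left them at 0.20 and 0.22, but the share of these genes was not a term in any fit. The medians of the summed levels were 3202 and 3636 CPM (patatin) and 5376 and 5674 CPM (protease inhibitors) in low- and high-bruising samples, and the ranges of these groups overlapped.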

How the data were processed

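The authors extracted RNA from pooled bruised tubers, built polyA-selected libraries, checked reads with FastQC 0.11.7, removed ribosomal reads with SortMeRNA, trimmed with BBDuk and aligned to the PGSC-DM genome with STAR 2.6.1. They deposited whole-number counts of reads per gene as STAR gives them, without normalization, after removing genes with low counts. All 25163 genes had 5 or more reads in at least 5 samples. STAR counts uniquely aligned reads, so a gene with near-identical copies can lose reads. Counts were normalized by TMM and tested with edgeR 4.0.16 in R 4.3.3 (quasi-likelihood F test, Benjamini-Hochberg adjustment over all genes, threshold 0.05). DESeq2 1.42.0, with which the study tested its genes, and limma-voom (limma 3.58.1) were alternatives. Log2 CPM used a prior count of 0.5. Correlations and the ratio were tested by permutation (100000 resamples, scipy 1.17.1 and numpy 2.4.6).

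Samples were grouped by their titles. Bruising scores came from the study's score table. They served as numeric terms in the fits, in the correlations and to set the stricter groups. Genes named are PHO1A, AGPB1, AGPB, the 5 genes closest to each by r, and candidate genes past the threshold on a bruising comparison. Candidate genes closest to or furthest from each by r, and single crosses and libraries, were named after their values were seen. The genes and lists were chosen with earlier results of these data known. The fit was tested on simulated data, where it also called genes without a change. These calls fell almost wholly among genes of very high dispersion. How many of the genes called in the tuber libraries are of this kind was not tested. Of the 100 libraries, 0 pairs held identical values. Each genotype had 1 library, so the spread between samples holds genotype, plant and library differences together. Replicate numbers 1 and 2 do not pair samples (correlation of the deviations -0.02). Sequences and gene lengths were not used here.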

Additional observations from a re-analysis of the deposited data

Results flagged for a closer look

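In 16 sets of libraries (8 crosses of 4 to 10 samples, for each gene), the gap between the highest or lowest library and its neighbour was compared with the range of the set, and 2 sets had a library far from the others. Chance alone gives about 1 in 20. In the Red Rascal cross (8 libraries), 1 low-bruising genotype had 419 CPM of AGPB1, and the next lowest library had 658 CPM. The same library had 454 CPM of PHO1A, the lowest of its cross. In the Crop37 cross (6 libraries), 1 genotype of neither bruising group had 1045 CPM of AGPB1, and the next highest library had 774 CPM. Its PHO1A level, 1354 CPM, was the second highest of its cross.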

How the results depend on the processing

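Between high and low bruising, the log2 differences of both genes stayed positive and did not pass the threshold in any of 12 other settings, nor with each cross or each of the 74 samples left out. It ran from 0.09 (cross as a term) to 0.27 (stricter groups, scores of at most 0.5 and at least 2.5) for PHO1A and from 0.17 (without the V390 cross) to 0.32 (stricter groups) for AGPB1. The difference among crosses kept its call in all 7 settings and with each cross left out. The number of genes called between high and low bruising, 46, was 0 with limma-voom, 3 with edgeR's filter, 0 with cross as a term, 28 with the replicate block and 17 with stricter groups, and from 14 to 105 with 1 cross or 1 sample left out. With the replicate block, the difference was 0.20 for PHO1A and 0.22 for AGPB1; the numbers do not pair the samples, and the block changed no call of either gene. Against low bruising, AGPB1 of neither group changed sign with the replicate block (-0.012), DESeq2's size factors (-0.0016) and limma-voom (-0.010), from 0.0020. The slope of PHO1A on the mean score passed the threshold with edgeR's filter (0.16, adjusted p = 0.0495), and ran from 0.13 to 0.18 with 1 cross left out, past the threshold without Red Rascal or Crop9. That of AGPB1 ran from 0.10 to 0.16, past it without Red Rascal. The difference in log2 ratio was -0.12 within crosses and ran from -0.092 to 0.032 with 1 cross left out. The r of PHO1A with AGPB1 ran from 0.50 to 0.59. Both scores in 1 fit was chosen after seeing the data. With 1 library per genotype, differences between genotypes cannot be told apart from those between libraries.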
